A study of Mus musculus with 63 samples.

Results

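ACSA2-positive astrocytes were sorted from mouse cortex 5 weeks after a burn or a sham injury, and their RNA was sequenced. Of the 18 astrocyte libraries among the 63 of the series, 17 are compared here: 9 from burn and 8 from sham mice, 1 library per mouse. They were found by the cell type and treatment in the sample labels and by mouse number, and mouse 3, a burn mouse with skin ulceration, was left out. All mice were female C57BL/6J, 12 weeks old when housed, and received AAV5-CamKII-eGFP and AAV1-mDlx-mRuby2 into the motor cortex of both hemispheres before the injury. Burn mice had a full thickness burn of 7 to 8% of body surface on the shaved right flank, and sham mice were shaved and not burned. The astrocytes came from cortex behind the motor region, outside the injected area, so both groups share the surgery and the viruses. Batch 1 held 3 burn and 1 sham library, batch 2 held 1 and 2, and batch 3 held 5 and 5.

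Astrocytes clear glutamate and potassium from around synapses, supply neurons with lactate and lipids, line blood vessels with endfeet and secrete factors that shape synapses. After injury they can become reactive, with more of the filament protein Gfap and with altered inflammatory and matrix genes. ACSA2 is an epitope on Atp1b2, a subunit of the sodium pump, and the sort on it keeps live cells that carry the epitope.

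The libraries carried the astrocyte genes at high levels. Per length, on the TPM scale computed from counts and exon lengths, the glutamate transporter Slc1a2 stood at 7376 ± 1140 (SD over 17 libraries) and ranked 9 of the 16172 genes with a mean of at least 1 CPM (counts scaled by the library total), called well counted below. Glul, which makes glutamine, stood at 9793 ± 1198 TPM and Cst3, a protease inhibitor, at 7746 ± 1409 TPM. The gap junction protein Gja1 stood at 1620 ± 184 TPM and the water channel Aqp4 at 1011 ± 141 TPM. The other places among the 10 highest went to Malat1, a nuclear RNA, to mt-Co1, mt-Co2 and mt-Co3, subunits of cytochrome c oxidase, and to Gm29216, Gm28437 and Gm28661. Those 3 are pseudogenes with levels close to those of the mitochondrial genes, and how reads were shared between the copies is uncertain.

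Library totals ran from 18295895 to 47769210 counts, with a median of 28809772, so that 0 counts in a library allows a level of up to 0.0628 to 0.164 CPM. Markers of other cells were low beside the astrocyte list, whose summed level was 55453 to 75021 CPM, but they varied. The 8 endothelial markers summed to 592 to 1657 CPM in burn libraries and 175 to 957 CPM in sham libraries, with sham mice 12, 13 and 18 lowest (175, 374 and 252 CPM) and burn mice 2 and 24 highest. The neuron list summed to 1667 CPM in sham mouse 13 and to 19.9 to 279 CPM in the others. The microglia list summed to 44.5 to 186 CPM, and the neutrophil and red blood cell lists had 0 well-counted members. In bulk RNA, fewer cells of a type and less RNA per cell cannot be told apart.

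No gene was called. In edgeR's quasi-likelihood test with batch as a covariate, 0 of 27930 genes (0.0%) passed an adjusted p of 0.05 with an absolute log2FC of at least 1, and the smallest adjusted p was 0.458. At an unadjusted p under 0.05 stood 2984 genes, 10.7% of those tested. Among well-counted genes the share was 6.75%: 603 genes were higher in burn (3.73%) and 489 lower (3.02%). The shift of the middle gene was small, with a median log2FC of 0.02 over well-counted genes. The 95% interval of the log2FC lay within 1 in either direction for 11993 well-counted genes (74.2%), which leaves a log2FC of 1 outside the interval of those. Precision followed the level: the median half-width of the interval was 0.91 for genes of 1 to 10 CPM, 0.27 for 10 to 100 CPM and 0.19 at 100 CPM and over.

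**Figure D1:**
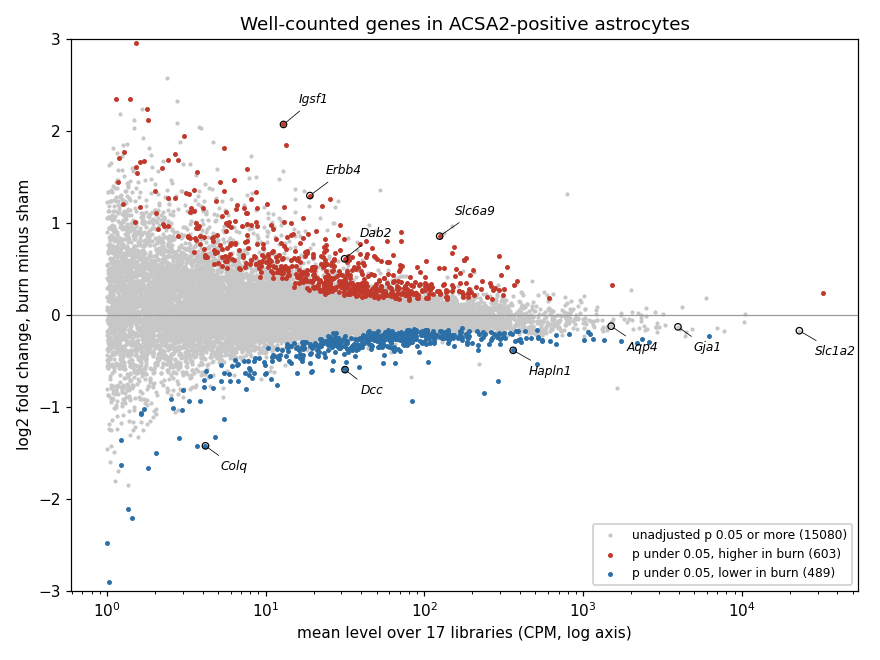
Log2 fold change of burn minus sham (vertical axis) against mean level in CPM (horizontal log axis) for the 16172 well-counted genes, with 4 genes beyond the axis limit of 3 not drawn. Red and blue points are the 603 higher and 489 lower genes at an unadjusted p under 0.05, and the spread narrows with level, with the markers Slc1a2, Aqp4 and Gja1 close to 0.

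DESeq2 on the same counts called 27 genes, of which 25 were under 1 CPM and 17 had no count in any burn library. Colq was among the 2 well-counted genes called (log2FC −1.43, adjusted p = 0.0262). Without a filter on low counts, edgeR called 4 genes. Among them were Erbb4, Igsf1 and Foxb1, each higher in burn, with adjusted p from 0.0318 to 0.0367. Foxb1 was counted in 3 burn and 0 sham libraries. Every other setting tried called 0 genes, so these calls depend on the tool and the filter.

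Of the 10 named genes of smallest p that were higher in burn, several encode signalling receptors, adaptors and enzymes. In the edgeR test with the filter each of the 10 had an adjusted p of 0.458, so none passed. Dab2, an endocytic adaptor, had a lowest, median and highest level of 24.6, 32.0 and 54.0 CPM in burn and 16.4, 26.4 and 31.3 CPM in sham libraries. Its log2FC was 0.61 ± 0.14 (SE; p = 0.000175), and 8 of 9 burn libraries were above every sham library.

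Fam53a was more even within groups. It stood at 23.3, 30.6 and 35.7 CPM in burn and 15.3, 22.6 and 24.9 CPM in sham (log2FC 0.48 ± 0.12), again with 8 of 9 burn libraries above every sham library. Limk2, a kinase that acts on actin through cofilin, stood at 87.2, 98.4 and 124 CPM against 68.3, 81.1 and 98.2 CPM (log2FC 0.33 ± 0.08). Hr, a corepressor known to respond to thyroid hormone in brain, stood at 33.8, 36.2 and 57.1 CPM against 16.7, 25.2 and 36.4 CPM (log2FC 0.60 ± 0.15), and mouse 23 was the highest. Xdh, xanthine oxidoreductase, had a log2FC of 0.98 ± 0.24, Flt4, a VEGF receptor, 1.01 ± 0.24, Trim16, a tripartite motif protein, 1.35 ± 0.34 and St6galnac2, a sialyltransferase, 1.11 ± 0.28.

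Some of these moved with the endothelial level of the libraries. With the log2 of the summed endothelial level as a further covariate, the log2FC was 0.50 for Xdh (from 0.98) and 0.50 for Flt4 (from 1.01). It was 0.57 for Dab2, 0.47 for Fam53a, 0.38 for Limk2 and 0.77 for Hr. Values of this fit for Trim16 and St6galnac2 are not given here. In sham mice 12, 13 and 18, lowest in endothelial sum, St6galnac2 stood at 2.01, 0.896 and 2.95 CPM, against 4.02 to 9.14 CPM in other sham mice. Trim16 stood at 1.57, 5.80 and 0.971 CPM there, against 2.04 to 5.05 CPM. The part of endothelial RNA in these differences was not tested beyond the fit with the covariate.

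The 10 named genes of smallest p that were lower in burn had an adjusted p of 0.458 each. Some have matrix or membrane products, which was seen after they were chosen and not tested. Of 14 well-counted genes in the list of extracellular matrix, 1 was lower and 2 were higher at p under 0.05. Its median log2FC was −0.08, and the shares over all well-counted genes were 3.02% and 3.73%. Dcc, the netrin receptor, had the smallest p of all named genes (6.30e-05). It stood at 18.7, 27.1 and 38.1 CPM in burn and 27.0, 34.6 and 48.7 CPM in sham (log2FC −0.60 ± 0.12), with 4 burn libraries below every sham library. Pnrc2, a nuclear receptor coactivator, overlapped little, at 113, 140 and 165 CPM in burn against 156, 169 and 189 CPM in sham (log2FC −0.34 ± 0.08), with 8 of 9 burn libraries below every sham library.

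Hapln1, which links hyaluronan to proteoglycans, stood at 275, 323 and 390 CPM in burn and 339, 400 and 521 CPM in sham (log2FC −0.39 ± 0.10). Efemp1, the matrix glycoprotein fibulin-3, stood at 35.2, 48.9 and 57.8 CPM against 49.5, 64.3 and 84.1 CPM (log2FC −0.44 ± 0.11). Gdf10, a TGF-beta family ligand, stood at 35.2, 47.1 and 61.6 CPM against 49.0, 63.9 and 93.7 CPM (log2FC −0.53 ± 0.12), and 7 burn libraries were below every sham library. Rlbp1, a retinaldehyde binding protein, had a log2FC of −0.52 ± 0.12, Slc39a6, a zinc transporter, −0.45 ± 0.12, Pcdh20, a protocadherin, −0.58 ± 0.15, Iscu, the scaffold for iron-sulfur clusters, −0.45 ± 0.12, and Colq, the collagen tail of acetylcholinesterase, −1.42 ± 0.37 at 0.347 to 6.68 CPM. Over the well-counted genes, 1 was higher in every burn library than in every sham library (0.00618%) and 0 were lower in every one. That gene was Rhebl1, named after its values were seen, with 2.28 to 5.34 CPM in burn and 0 to 1.99 CPM in sham libraries (log2FC 1.59 ± 0.68).

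**Figure D2:**
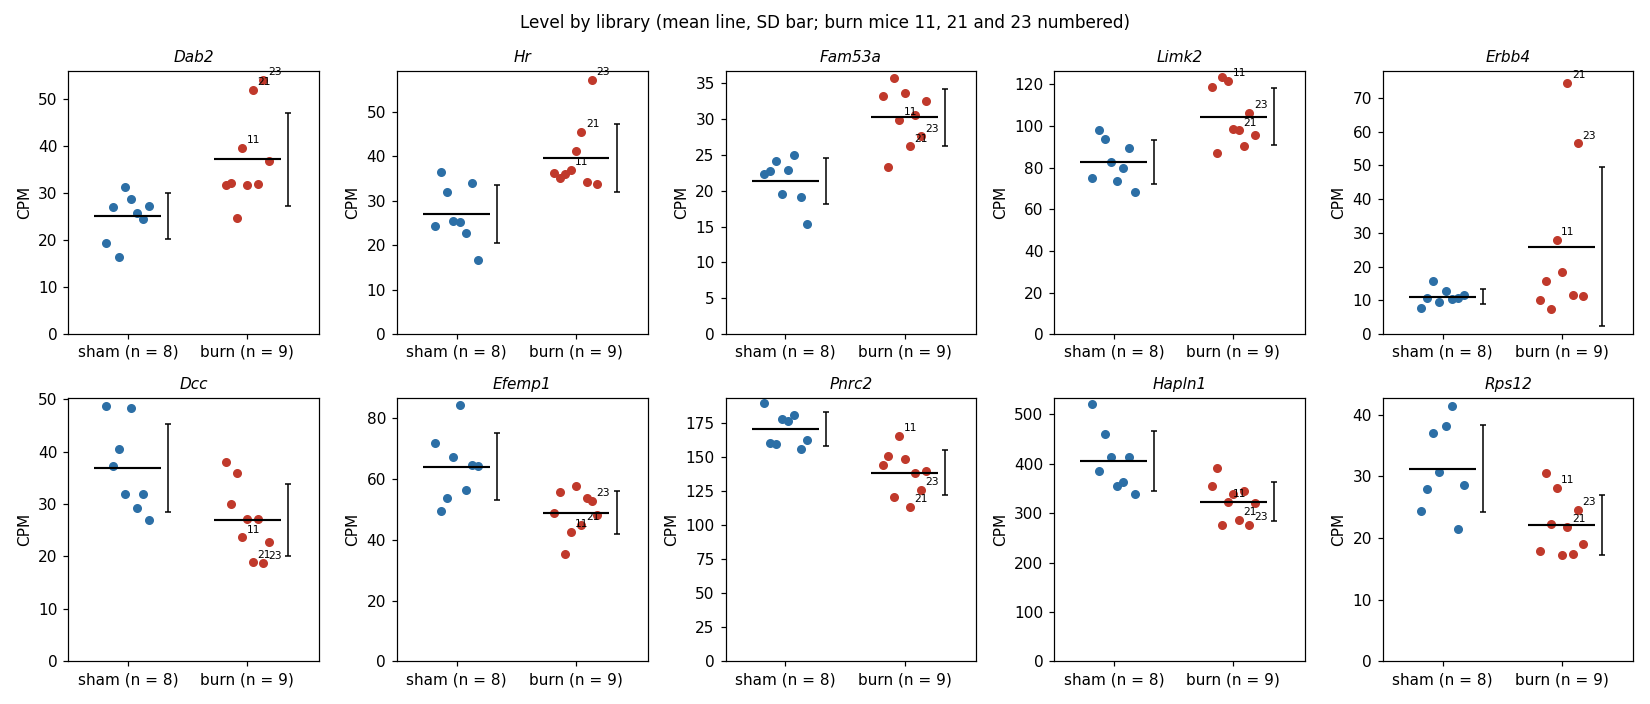
Level in CPM of 10 genes in each of the 8 sham (blue) and 9 burn (red) libraries, with the mean as a line and the SD as a bar. Pnrc2 and Fam53a overlap little between groups, while the high Erbb4 values are those of burn mice 11, 21 and 23.

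A few burn libraries carried most of the difference in several genes. Erbb4, a neuregulin receptor, stood at 27.9, 74.4 and 56.5 CPM in burn mice 11, 21 and 23, against 7.34 to 18.4 CPM in the other burn mice and 7.63 to 15.8 CPM in sham mice (log2FC 1.30 ± 0.33). Igsf1, an immunoglobulin superfamily protein, stood at 31.2, 55.5 and 62.5 CPM in the same mice and at most 9.29 CPM in any other (log2FC 2.07 ± 0.53). Slc6a9, the glycine transporter GlyT1, stood at 144, 292 and 345 CPM there, against 40.6 to 133 CPM elsewhere (log2FC 0.86 ± 0.22). Sfrp5, a Wnt antagonist, reached 24.6, 88.3 and 111 CPM there.

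The same libraries held transcripts of the patterning factors Irx1 and Irx2. Otx2, another such factor, stood at 6.60, 14.9 and 16.8 CPM there, but also at 13.4 CPM in burn mouse 24 and 7.01 CPM in sham mouse 16. Of 14 well-counted genes in the list of regional patterning factors, 2 were higher and 1 lower at p under 0.05. Without mice 11, 21 and 23, 0 of 13 were higher and 1 lower. Irx2, an Iroquois homeobox factor, stood at 5.84, 8.98 and 8.54 CPM in mice 11, 21 and 23, at 0.184 CPM in sham mouse 8 and at 0 in the 13 others compared. Irx1 stood at 4.22, 6.53 and 15.9 CPM in those mice and at 1.02 CPM or less in the others. Mouse 3, the burn mouse left out, had 1.42 CPM of Irx2 and 1.63 CPM of Irx1. These genes, except Erbb4, Slc6a9 and Irx2, were chosen after their values were seen. Without mice 11, 21 and 23 the log2FC was 0.37 for Erbb4, −0.05 for Igsf1 and 0.31 for Slc6a9, whereas it was −0.44 for Dcc, 0.36 for Dab2 and 0.58 for Fam53a. What set these libraries apart was not tested.

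The lists of astrocyte functions had medians near 0. Counts of list members at an unadjusted p under 0.05 in the main fit stand against 3.73% of all well-counted genes higher and 3.02% lower. This holds here and in the lists that follow. Each list was also read in 4 other fits, always given in this order. They are batch 3 alone, batches 1 and 2 alone, the endothelial covariate, and the fit without mice 11, 21 and 23. In batch 3 alone the shares were 2.76% higher and 1.92% lower, and in batches 1 and 2 alone 3.77% and 2.59%. For the last 2 fits no share by direction was counted. Over all tested genes, low counts included, they had 2557 of 27930 and 1938 of 27160 at p under 0.05 in either direction. Of 18 astrocyte markers, 14 were lower and 4 higher in burn, with a median log2FC of −0.16, and 2 had an unadjusted p under 0.05: Slc1a3, the second glutamate transporter (−0.23 ± 0.11), and Mlc1, an endfoot membrane protein (−0.22 ± 0.10). Slc1a2 stood at 19906, 21413 and 25953 CPM in burn and 18652, 25053 and 28324 CPM in sham (log2FC −0.17, interval −0.42 to 0.08). Aqp4 had a log2FC of −0.12 (interval −0.37 to 0.12) and Gja1 of −0.13 (interval −0.35 to 0.09). The median of the markers in the 4 other fits was −0.05, −0.28, −0.08 and −0.14, with 1, 1, 0 and 1 members lower at p under 0.05 and 0 higher.

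For transmitter handling, 13 of 13 genes were well counted, 6 on the higher and 7 on the lower side; 1 was higher at p under 0.05 (Slc6a9) and 3 lower: Slc1a3, Aldh5a1, which ends GABA breakdown (−0.24 ± 0.09), and Slc7a11, the cystine-glutamate exchanger (−0.28 ± 0.11). The median was −0.12, and in the 4 other fits 0.0073, −0.26, −0.06 and −0.08, with 3, 1, 1 and 0 members higher and 0, 2, 0 and 0 lower at p under 0.05. The list of connexins, water and potassium buffering had 2 of 17 lower, Mlc1 and the sodium pump subunit Atp1b1 (−0.32 ± 0.11), with 8 members on the higher and 9 on the lower side and a median of −0.02. Its median in the 4 other fits was 0.06, −0.24, 0.0037 and −0.04, with 1, 2, 1 and 1 members lower at p under 0.05 and 0 higher. Among 16 lineage transcription factors, 15 were lower and 1 higher (median −0.11), with 2 at p under 0.05, Id4 (−0.27 ± 0.10) the smallest in p; each of the 4 other fits had 2 lower and 0 higher, with medians of −0.08, −0.11, −0.06 and −0.06. The 18 synaptogenic and pruning factors had a median of −0.10, with Chrdl1, a BMP antagonist that acts on synapse maturation, lower at p under 0.05 (−0.33 ± 0.14) and Sparc, a matrix protein that opposes synapse formation, higher (0.43 ± 0.19). Without mice 11, 21 and 23 these were at −0.13 and −0.12. The median of the list in the 4 other fits was −0.07, −0.19, −0.02 and −0.14, with 0, 1, 0 and 0 members higher and 2, 1, 0 and 0 lower at p under 0.05.

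The lists of reactive genes held 0 or 1 member each at p under 0.05. Gfap stood at 171, 308 and 436 CPM in burn and 224, 318 and 898 CPM in sham, with sham mouse 19 the highest (log2FC −0.21 ± 0.20, interval −0.63 to 0.21; 0.06 without that mouse). Vim, another filament gene, had a log2FC of −0.15 ± 0.14 and Serpina3n, a protease inhibitor, −0.24 ± 0.31 (0.08 without sham mouse 19). Lcn2, a marker of strong reactivity, was at 0 to 0.601 CPM in all libraries and not well counted. The pan-reactive list held 1 of 10 genes at p under 0.05, Cd44, the hyaluronan receptor, lower at −0.63 ± 0.20 with 6 burn libraries below every sham library. Its median was −0.11, and in the 4 other fits −0.22, 0.10, −0.20 and −0.31, with 1, 1, 3 and 1 members lower and 0 higher. The A1 list had 10 of 11 members on the higher side, a median of 0.26 and 1 higher at p under 0.05 (against 3.73% of all well-counted genes), Iigp1, an interferon-induced GTPase (0.87 ± 0.35). In the 4 other fits its median was 0.16, 0.38, −0.02 and 0.12, with 0 members at p under 0.05 in each. The A2 list had 5 of 12 members well counted, 0 of them at p under 0.05, and a median of 0.51. The A2 median in the 4 other fits was −0.07, 1.43, 0.57 and 0.11, with 0, 2, 0 and 0 members higher and 1, 0, 0 and 0 lower.

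**Figure D3:**
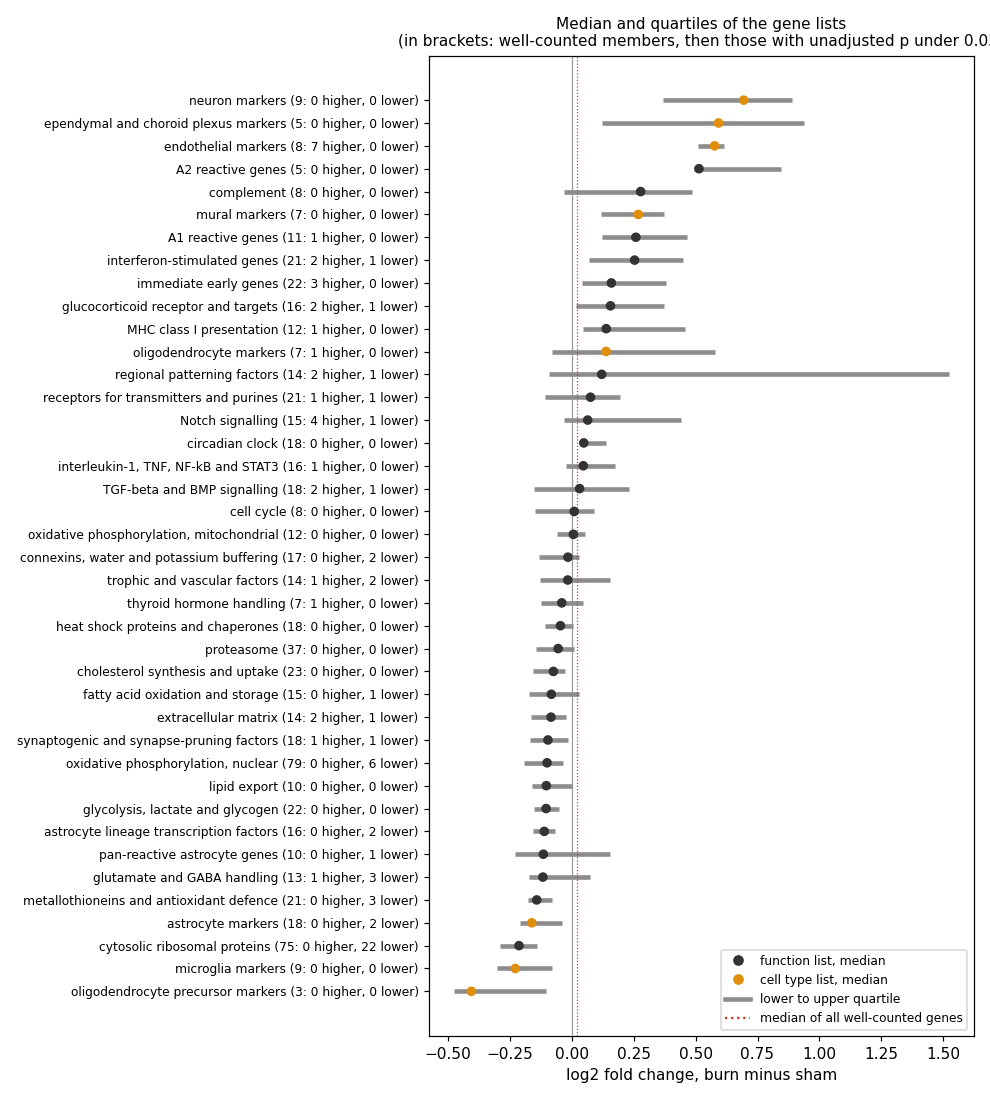
Median log2 fold change (points) and quartiles (bars) of the well-counted members of each gene list, with the median of all well-counted genes as a dotted line. Brackets give the well-counted members and those with an unadjusted p under 0.05; endothelial markers stand highest by share and cytosolic ribosomal proteins hold the most lower members.

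Cytosolic ribosomal protein genes, which build the subunits that translate mRNA, were mostly on the lower side. Of 75 well-counted members, 71 were lower and 4 higher in burn, with a median log2FC of −0.21 and quartiles of −0.29 and −0.14. At p under 0.05 were 22 lower (against 3.02% of all well-counted genes) and 0 higher. Rps12 stood at 17.2, 21.8 and 30.6 CPM in burn and 21.4, 29.7 and 41.5 CPM in sham (log2FC −0.51 ± 0.15). Rpl35 stood at 38.4, 53.2 and 77.9 CPM against 48.2, 68.4 and 111 CPM (log2FC −0.40 ± 0.13), Rps23 had −0.35 ± 0.11 and Rpl6 −0.31 ± 0.10. The groups overlapped for each of the 4.

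The count of 22 was sensitive to single libraries. It was 14 without burn mouse 11, 34 without burn mouse 20, 37, 13, 12 and 39 without sham mice 12, 13, 15 and 18, and 7 without mice 11, 21 and 23 together. In batch 3 alone 17 were lower (against 1.92% of well-counted genes) and in batches 1 and 2 alone 0 (against 2.59%), with medians of −0.21 and −0.22. With the endothelial covariate 34 were lower. No share of lower genes over all well-counted genes was counted for this fit or for that without mice 11, 21 and 23. Many of these genes have processed pseudogene copies, so how reads were split between copies is uncertain.

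The sequences around the start sites of the 4 ribosomal protein genes of smallest p are shown because such genes are known for a pyrimidine stretch at the start of their transcripts. They run from 70 bases before to 30 bases after the RefSeq start on GRCm38.p6, on the strand of the gene, and capitals mark CTTTC. The methods name both mm10 and GRCm39 as the build of the counts, so these positions are not taken as those of the counts.
Rps12, chr10:23787180-23787279, minus strand: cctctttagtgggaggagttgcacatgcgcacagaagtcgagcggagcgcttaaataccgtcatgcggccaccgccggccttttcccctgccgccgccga
Rpl35, chr2:39005102-39005201, minus strand: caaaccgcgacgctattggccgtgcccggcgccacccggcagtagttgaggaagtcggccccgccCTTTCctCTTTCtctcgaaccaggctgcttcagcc
Rps23, chr13:90923052-90923151, plus strand: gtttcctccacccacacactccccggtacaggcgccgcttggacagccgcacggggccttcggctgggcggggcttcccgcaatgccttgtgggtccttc
Rpl6, chr5:121204431-121204530, plus strand: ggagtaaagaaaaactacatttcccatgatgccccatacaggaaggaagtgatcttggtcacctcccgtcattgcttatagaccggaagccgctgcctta
Of 75 genes, 55 matched a promoter, and 23 (41.8%) held CTTTC on the gene's strand in this window, against 12.4% of all 27025 promoters. On the other strand the shares were 10.9% and 11.5%, and on either strand 49.1% and 22.7%. The motif was chosen after looking at these windows, and a match describes letters, not a site.

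For oxidative phosphorylation, 67 of 79 nuclear-encoded genes were lower (median −0.10) and 6 of them had p under 0.05 (against 3.02% of all well-counted genes), such as Cox7c, a cytochrome c oxidase subunit (−0.33 ± 0.12). In the 4 other fits the median was −0.11, −0.07, −0.11 and −0.11, with 7, 0, 10 and 5 lower and 0, 1, 0 and 0 higher. The 12 mitochondrially encoded genes were split at 6 and 6 with a median of 0.0064 and 0 at p under 0.05. Their batches went opposite ways: in the 4 other fits the median was 0.18, −0.42, 0.04 and 0.03, with 3, 0, 0 and 0 members higher and 0 lower. Of 21 metallothionein and antioxidant genes, 19 were lower (median −0.14), with Prdx6 (−0.19 ± 0.09), Prdx1 (−0.18 ± 0.09), both peroxiredoxins, and Gsta4, a glutathione transferase (−0.29 ± 0.14), at p under 0.05; in the 4 other fits 1, 1, 2 and 2 were lower and 0 higher, with medians of −0.05, −0.23, −0.12 and −0.13. Glycolysis (0 of 22), cholesterol synthesis (0 of 23), lipid export (0 of 10), heat shock (0 of 18), circadian clock (0 of 18), proteasome (0 of 37), complement (0 of 8) and cell cycle (0 of 8) held no gene at p under 0.05. In batches 1 and 2 alone 6 of the 23 cholesterol genes were lower (against 2.59% of well-counted genes) with a median of −0.29, against 0 in the 3 fits besides, with medians of −0.0024, 0.02 and −0.10. With the endothelial covariate 3 proteasome genes were lower, and in batches 1 and 2 alone glycolysis had 1 gene higher and 1 lower; otherwise these lists held 0 or 1 gene at p under 0.05 in each of the 4 other fits. In fatty acid oxidation and storage 1 of 15 did, the fatty acid binding protein Fabp5, lower at −0.31 ± 0.09, with 7 burn libraries below every sham library; in the 4 other fits 2, 1, 2 and 2 of that list were lower and 0, 0, 1 and 1 higher.

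The endothelial list had the highest share of members higher in burn. Of 8 endothelial markers 7 were higher at p under 0.05, against 3.73% of all well-counted genes, with a median log2FC of 0.58. Slco1a4, a transporter of the blood-brain barrier, stood at 113, 175 and 311 CPM in burn and 30.4, 116 and 175 CPM in sham (log2FC 0.67 ± 0.24), and Pecam1, an endothelial adhesion molecule, at 34.4, 54.6 and 106 CPM against 10.9, 39.8 and 62.6 CPM (log2FC 0.61 ± 0.23). The groups overlapped in both. The count of 7 was 0 without burn mouse 11, 4 without burn mouse 24 and 0 without mice 11, 21 and 23. It was 3 in batch 3 alone (against 2.76% of well-counted genes) and 0 in batches 1 and 2 alone (against 3.77%), with medians of 0.47 and 0.74. None of the 8 markers was at 0 in every library. Mural markers had 0 of 7 at p under 0.05 and a median of 0.27, and in the 4 other fits 0 again and medians of 0.14, 0.34, −0.10 and −0.06.

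**Figure D4:**
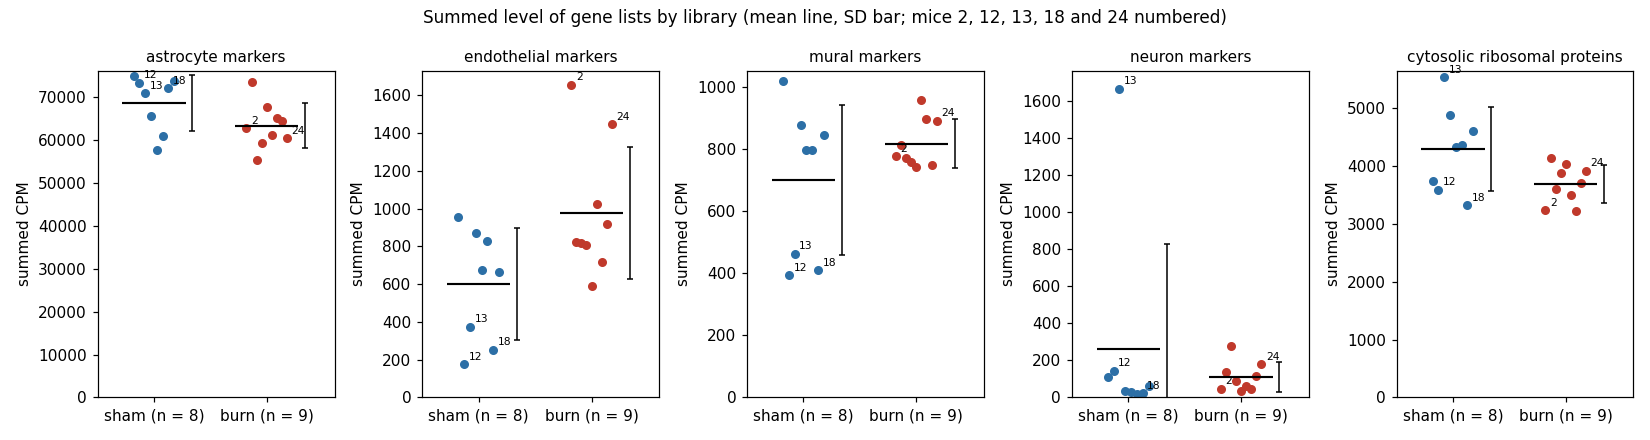
Summed CPM of 5 gene lists in each of the 8 sham (blue) and 9 burn (red) libraries, with the mean as a line and the SD as a bar, cut at 0 for the neuron list. Sham mice 12, 13 and 18 are low in endothelial and mural markers, and sham mouse 13 holds 1667 CPM of neuron markers.

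Notch and immediate early genes also had members higher in burn at p under 0.05. Of 15 Notch genes 4 were higher (against 3.73% of all well-counted genes), the ligands Jag1 (0.54 ± 0.16) and Jag2 (0.71 ± 0.21), the target Heyl (0.40 ± 0.15) and the receptor Notch4 (0.48 ± 0.23), and 1 was lower (against 3.02%), the target Hes5 (−0.25 ± 0.11). Notch genes higher in the 4 other fits numbered 3, 3, 3 and 2 and those lower 1, 1, 0 and 1, and the median of 0.06 was 0.11, −0.01, −0.01 and 0.09. Jag1 stood at 47.0, 79.2 and 99.5 CPM in burn and 35.0, 54.2 and 85.2 CPM in sham, and with the endothelial covariate its log2FC was 0.67, that of Jag2 0.18 and that of Notch4 −0.04. Of 22 immediate early genes, 19 were higher and 3 lower (median 0.16), and 3 were higher at p under 0.05, against 3.73% of all well-counted genes: Fosb, an AP-1 factor (0.74 ± 0.19), Ier2 (0.57 ± 0.22) and Klf2, a factor that is high in endothelium (0.65 ± 0.28). Fosb stood at 130, 167 and 361 CPM in burn and 36.2, 120 and 185 CPM in sham, and its log2FC with the endothelial covariate was 0.44, against 0.08 for Ier2 and −0.04 for Klf2. In the 4 other fits the list had 1, 5, 1 and 1 members higher and 0 lower, with medians of 0.10, 0.27, −0.05 and 0.22.

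Other signalling lists were mixed. The TGF-beta and BMP list had 18 well-counted genes with a median log2FC of 0.03. The glucocorticoid list had 16 with a median of 0.16, and the trophic list 14 with a median of −0.02. In TGF-beta and BMP signalling, Tgfbr3 (0.54 ± 0.18) and Smad3 (0.25 ± 0.11) were higher and the receptor Bmpr1a (−0.29 ± 0.10) was lower at p under 0.05. Interferon-stimulated genes had 2 higher, Parp14 (0.66 ± 0.28) and Ifi44 (1.18 ± 0.56), and 1 lower, Ifit3b (−0.50 ± 0.21), of 21 members (against 3.73% and 3.02% of all well-counted genes), with a median of 0.25. In the 4 other fits that median was −0.12, 0.56, −0.06 and −0.06, with 0, 5, 0 and 0 members higher and 0, 0, 2 and 3 lower at p under 0.05; the 5 stand against 3.77% of well-counted genes in that fit. Glucocorticoid targets had Sgk1 (0.53 ± 0.26) and Map3k6 (1.16 ± 0.53) higher, at −8.36e-05 and 0.72 with the endothelial covariate, and Pdk4 (−0.25 ± 0.08) lower, while the receptor Nr3c1 stood at −0.08 ± 0.09. Trophic factors had Ptn, a heparin-binding growth factor (−0.31 ± 0.11), and the GDNF receptor Gfra1 (−0.35 ± 0.14) lower, and Agt, angiotensinogen, higher (0.62 ± 0.27), although Agt was at −0.16 without mice 11, 21 and 23. In the 4 other fits the TGF-beta and BMP list had 2, 0, 1 and 0 members higher and 0, 1, 3 and 2 lower at p under 0.05. Glucocorticoid targets had 0, 2, 1 and 1 higher and 1, 0, 0 and 0 lower. Trophic factors had 0, 0, 0 and 1 higher and 1, 2, 1 and 2 lower.

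Genes were also grouped by the letters that open their symbols. Of 152 symbol stems with at least 10 well-counted genes, the lowest medians were Smim (−0.18), small membrane proteins, Rps (−0.18) and Rpl (−0.18), the ribosomal protein stems. The highest were Dnah (0.83), the axonemal dynein heavy chains, Cfap (0.71), cilia-linked proteins, and Tnfrsf (0.37), TNF receptors. Without mice 11, 21 and 23 these medians were 0.47, 0.35 and 0.13, and that of Tnfrsf was 0.09 with the endothelial covariate. All 13 Dnah genes and 27 of 29 Cfap genes were on the higher side in burn, 1 and 2 of them at p under 0.05, against 3.73% of all well-counted genes. The 5 ependymal markers had a median of 0.59, and in the 4 other fits −0.26, 2.31, 0.62 and 0.27, with 0, 2, 0 and 0 higher at p under 0.05.

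Batch 3 and batches 1 and 2 share no library, so each gives its own difference. Over 16170 well-counted genes the sign was the same in 8706 (53.8%). Of the 757 genes with p under 0.05 in batch 3, 490 (64.7%) had the same sign in the other batches, and of 1028 in batches 1 and 2, 550 (53.5%) did in batch 3. At p under 0.05 in both stood 60 of the 16170 genes, 48 with the same sign. How many would coincide by chance was not counted, so the overlap is no measure of agreement. Dcc was −0.54 and −0.71 in the separate parts, Dab2 0.60 and 0.62, and Limk2 0.32 and 0.34; these were chosen on all libraries, so their match is no independent test.

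**Figure D5:**
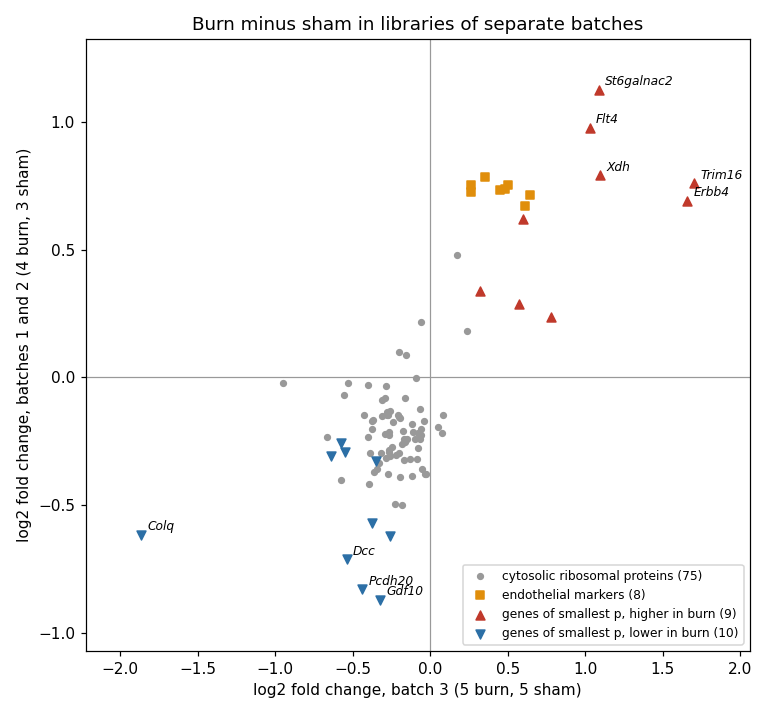
Log2 fold change of burn minus sham in batch 3 (horizontal) against batches 1 and 2 (vertical) for 19 of the 20 named genes of smallest p, the endothelial markers and the ribosomal proteins. Named genes keep their sign in both, as they were chosen on all libraries, and most ribosomal points lie below 0 on both axes.

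Against microglia, the burn effect differed for 1 gene of 30983 tested (0.00323%). Burn mouse 11 and sham mouse 12 were in this fit with an astrocyte library and no microglia library. Tmem200c, a membrane protein named after its values were seen, was at a log2FC of −0.13 ± 0.09 in astrocytes. In microglia it was at 0 in all 8 burn libraries and at 0 to 0.671 CPM in 7 sham libraries, 4 of them with a count, so the interaction of 5.31 (interval 3.60 to 7.03, adjusted p = 0.0422) rests on microglial levels near the floor. With mouse as a replicate block it was not called (log2FC 5.27, adjusted p = 1). In the fit without the block, 6 of 8 endothelial markers had a higher burn effect in astrocytes at an unadjusted p under 0.05. So had 4.94% of well-counted genes and 1 of 75 ribosomal protein genes. Mouse 12, without a microglia library, had the lowest endothelial sum of the astrocyte libraries (175 CPM). Counts with the block and levels of these markers in microglia are not given here.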

How the data were processed

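Per the paper's methods and the labels, the authors depleted ribosomal RNA, made stranded total RNA libraries, trimmed reads with fastp and aligned them with STAR. The methods name the reference both as mm10 and as GRCm39. Reads were counted on genes in R, and whether by strand is not given in the sources used here. The deposited counts, 1 table per cell type without normalisation, were used as they stand for astrocytes and microglia. Deposited variance stabilised values were not used, nor were the neuron tables. Columns were matched to samples by mouse number and batch came from the supplementary sample list.

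Burn against sham was tested with edgeR 4.0.16 (R 4.3.3; quasi-likelihood, TMM, batch and treatment, genes with at least 10 counts in total) and Benjamini-Hochberg adjustment over all genes. Every p-value in the text is from these fits unless named otherwise, and SE is the absolute log2FC over the square root of F. CPM is the count over the library total. TPM used exon lengths of GENCODE M21, which is on GRCm38, for 52073 of 56980 genes, so no positions of counted genes are given. Burn effects in astrocytes and microglia were compared by an interaction over the 17 astrocyte and 15 microglia libraries, without a mouse block. A second fit with mouse as a block used the 15 mice with both. The libraries of a mouse are paired because they come from the same animal; their deviations from group means correlated at a median of 0.0683 (−0.0465 to 0.242, 13 mice). No pair of the 18 astrocyte libraries agreed within sampling noise (lowest chi-square per degree of freedom 16.9 of 153 pairs).

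Named genes are, excluding Gm and Rik symbols, the 10 well-counted genes of smallest p in each direction, the well-counted member of smallest p in each function list, the markers Slc1a2, Aqp4 and Gja1, the 10 most abundant per length, and list members with p under 0.05 or called in the text as chosen after their values were seen. A few of these genes are not reported here. The members and gene lists were chosen with earlier results of these data known. DESeq2 1.42.0, RLE factors, other filters, no batch term, single batches, mouse 3 included and each mouse left out were alternatives. The edgeR test was tested on simulated counts of 26675 genes, at an adjusted p of 0.05 with no log2FC threshold. It called 74, 60, 68 and 84% of genes changed by a log2FC of −2, −1, 1 and 2, and 8 of 26475 unchanged genes. The changed genes, 50 at each log2FC, were drawn from well-counted genes only. No batch effect was simulated, so these shares cover that setting and not genes under 1 CPM. Intervals and floors cover counting error or spread between these mice only.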

Additional observations from a re-analysis of the deposited data

Results flagged for a closer look

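In groups of 8 or 9 libraries, 128 sets of values of named genes and cell type sums were compared, and 10 had a library far from the rest of its group; about 1 in 20 would by chance. Burn mouse 24 had the highest Xdh (78.3 CPM, next 50.8), Tm4sf1 (72.9 CPM, next 46.6) and Fosb (361 CPM, next 244), and its summed endothelial level was the second highest among burn libraries. Burn mouse 23 had the highest Hr (57.1 CPM, next 45.5) and Ifit3b (21.2 CPM, next 14.2), and burn mouse 2 had the highest Cxcl12 (442 CPM, next 255). Sham mouse 8 had the highest Prdx6 (1497 CPM, next 1155) and was the one sham library with a count of Irx2 (0.184 CPM). Sham mouse 13 had 1667 CPM of neuron markers (next 144) and 758 CPM of oligodendrocyte markers (next 294). Without it, 13 ribosomal protein genes were lower at p under 0.05, against 22 with it.

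Tmem200c had a burn effect in astrocytes minus that in microglia of 5.31 on the log2 scale, which passed the interaction test but not with mouse as a replicate block.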

How the results depend on the processing

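The count of 0 called genes became 27 with DESeq2 and 4 with no filter on low counts, and stayed 0 in every other alternative, single mice left out included. Lower genes at p under 0.05 numbered 311 in batch 3 alone, against 489. Endothelial markers higher at p under 0.05, 7 as reported, numbered 4 with DESeq2, 3 in batch 3 alone, and 0 in batches 1 and 2 alone, with the endothelial covariate, which is the sum of these markers so that this 0 follows from its construction, and without mice 11, 21 and 23 (the last 2 settings were chosen after seeing the data); with single mice left out they ran from 0 to 8. Lower ribosomal protein genes, 22 as reported, numbered 0 in batches 1 and 2 alone, 34 with the endothelial covariate, 10 with mouse 3 and 7 without mice 11, 21 and 23, and 12 to 39 with single mice left out. Interaction calls against microglia, 1 as reported, numbered 3 in batch 3 alone, 0 with the replicate block, and 0 to 9 with single mice left out. Of 86 genes, 53 named by rule and 33 other genes of the text, 75 kept their direction in all alternatives that could be fitted. In batch 3 alone Tm4sf1 was at −0.066; in batches 1 and 2 alone Pcna was at 0.00066, Gfap at 0.024 and Smad3 at −0.060; with the endothelial covariate Klf2 was at −0.038, Notch4 at −0.041 and Sgk1 at −8.36e-05; without mice 11, 21 and 23 Igsf1 was at −0.055, Sparc at −0.12 and Agt at −0.16; without sham mouse 19 Gfap was at 0.056 and Serpina3n at 0.075, in ranges over single mice left out of −0.32 to 0.056 and −0.47 to 0.075. The causes were not tested. Adjusted p over these alternatives ran from 0.00822 to 1.00. The depth limits genes under 1 CPM, whose median interval half-width was 2.91 on the log2 scale.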
